A study of Mus with 21 samples.

Results

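The genes described here are the Wnt pathway genes of the mouse embryonic brain, chosen by name and by their place in the pathway. The list holds 59 names in 5 roles: 18 ligands and secretion factors, 17 receptors, 10 secreted antagonists, 9 cytoplasmic and nuclear effectors, and 5 feedback targets. Of these, 58 had a row of their own among the 55335 rows of the deposited count table, and all 58 were among the 30552 genes tested. The remaining name, *Sfrp3*, is a synonym of *Frzb*, which is also on the list, and has no row of its own.

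WNT proteins are secreted ligands that bind FZD receptors together with LRP5 or LRP6. In the canonical branch, the signal passes through dishevelled proteins, stops a destruction complex built on APC and AXIN from degrading beta-catenin, and lets beta-catenin act with TCF and LEF factors at target genes. Other branches signal through receptors such as ROR and RYK or steer planar cell polarity. In the embryonic brain, Wnt signaling patterns the dorsal forebrain, regulates progenitors of the cortex and hippocampus, and acts on the growing brain vessels.

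Poly(A) RNA from whole brains of female embryos at E17.5 was sequenced, with 1 library per embryo. The groups compared were 5 *WT* embryos (Wapl +/+ and Nipbl +/+), 7 *Wapl*Δ/+ embryos (Wapl delta/+ or +/delta, with Nipbl +/+), 3 *Nipbl*+/- embryos (Nipbl +/delta, with Wapl +/+) and 6 double heterozygotes that carry both deletions. *Nipbl* encodes the factor that loads cohesin onto DNA, and *Wapl* the factor that releases it. The study asked how a lower dose of each gene, or of both, alters expression in the brain. Both deletions are inherited through the germ line, in C57BL/6J mice, so every cell of an embryo carries them. The litter of each embryo was not used here, and P values set each difference against the spread between these libraries. The study found that embryo size varied between litters. Libraries from 1 litter may therefore not be independent, which was not tested, and P values may be too small.

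Total counts ran from 25682566 to 35818767 per library. No libraries of 1 group were near copies, since the chi-square per gene was at least 2.85 over 49 pairs. *Nipbl* was at 2166 ± 155 normalized counts (SD, n = 5) in *WT*, 1176 ± 97.9 (n = 3) in *Nipbl*+/- and 1187 ± 38.7 (n = 6) in double heterozygotes. *Wapl* was at 1492 ± 77.0 in *WT*, 697 ± 67.4 (n = 7) in *Wapl*Δ/+ and 736 ± 28.3 in double heterozygotes, so all libraries fit their labels. A mitochondrial transcript, *mt-Nd3*, split the libraries into 9 with 52 to 106 counts and 12 with 0 to 6. All 3 *Nipbl*+/- libraries were in the low set, with 3 of 5 *WT*, 2 of 7 *Wapl*Δ/+ and 4 of 6 double-heterozygote libraries. Among the carriers of the *Wapl* deletion, the low set was the libraries whose label writes the deletion first. Markers of neurons were present in every group, with all 12 genes of the list above 0.

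Normalized counts are counts divided by the library size after TMM scaling and multiplied by the mean library size, and they compare libraries, not genes of different length. A gene was called when its adjusted P was below 0.10 in the quasi-likelihood test of edgeR, adjusted over all 30552 genes. The mean over all libraries reached 100 normalized counts for 45 of the 58 Wnt genes. For these, the coefficient of variation had a median of 5.39% among *WT* libraries, 7.02% in *Wapl*Δ/+, 7.34% in *Nipbl*+/- and 9.20% in double heterozygotes. All comparisons with *WT* share the same 5 *WT* libraries.

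In *Nipbl*+/- brains, 15 of 58 Wnt genes were called, 9 higher and 6 lower than in *WT*, where 11.2% of all tested genes were called. The higher genes were *Axin2*, *Dvl1*, *Dvl2*, *Dvl3*, *Fzd2*, *Lef1*, *Rspo3*, *Tcf7l2* and *Wnt7a*, and the lower genes were *Apc*, *Dkk3*, *Fzd4*, *Nkd2*, *Rspo2* and *Wnt5a*. The share of Wnt genes called was 25.9%. Higher calls made up 4.25% and lower calls 6.96% of all tested genes. Where the mean reached 100 normalized counts, 33.3% of the Wnt genes and 20.5% of all genes were called. The median log2 fold change was 0.02 over the Wnt genes and -0.01 over all genes. The libraries of both groups did not overlap for 15 of 58 Wnt genes, 11 of them called, and for 13.4% of all tested genes. By role, the calls covered 4 of 18 ligands, 2 of 17 receptors, 1 of 9 antagonists, 5 of 9 effectors and 3 of 5 targets. With 1 library left out, the count of 15 ran from 9 without *Nipbl*+/- replicate 1 to 24 without *Nipbl*+/- replicate 2, where 5.98% and 15.7% of all tested genes were called. These are whole brains, so fewer cells of a type and less RNA per cell cannot be told apart.

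**Figure D1:**
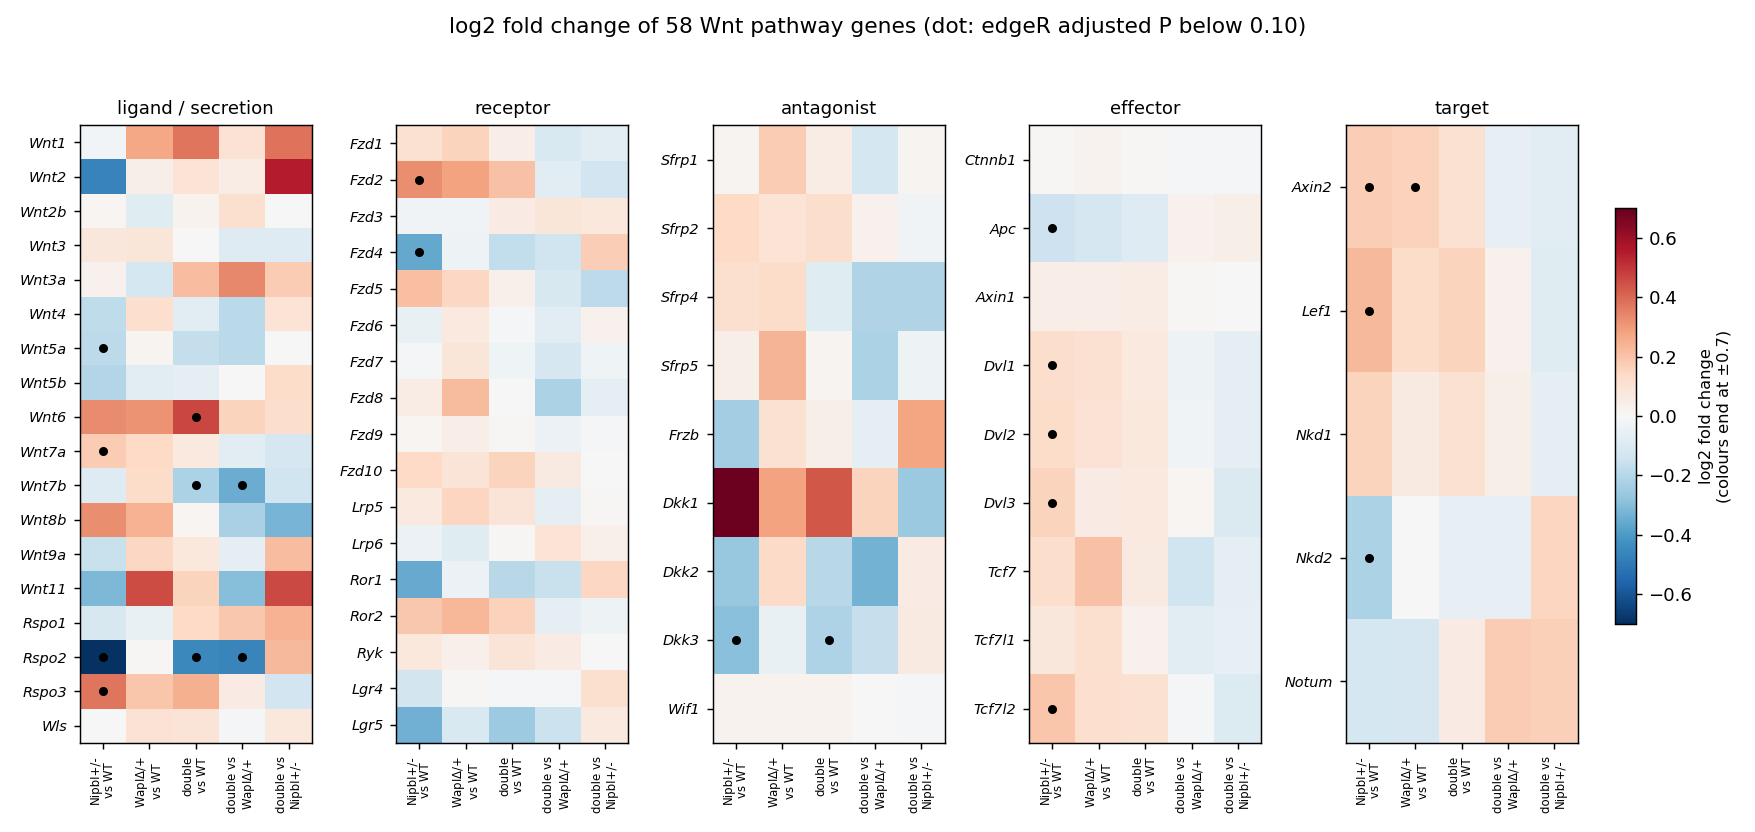
Log2 fold change of the 58 Wnt pathway genes (rows, by role) in 5 comparisons of genotypes (columns), with red for higher and blue for lower in the genotype named first and a black dot for edgeR adjusted P below 0.10. The first column, *Nipbl*+/- against *WT*, holds 15 dots, the second 1, the third 4, the fourth 2 and the last none.

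Among the ligand genes, *Rspo2* fell furthest. It encodes an R-spondin, a secreted protein that strengthens the response to WNT through LGR receptors, and it lies on chromosome 15, from 43020788 to 43171594 (GRCm38.p6). The 5 *WT* libraries had 257, 237, 241, 254 and 244 normalized counts, and the 3 *Nipbl*+/- libraries 151, 167 and 141. Every mutant library was below every *WT* library. *Rspo2* fell by 38.1% in *Nipbl*+/- brains (log2 fold change -0.69, SE 0.0873, edgeR adjusted P = 0.000137). The call was kept without any 1 library, with log2 fold changes from -0.76 to -0.63. *Nipbl* itself is on the same chromosome, 34.6 Mb away.

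*Rspo3*, a second R-spondin gene, moved the other way. Its *WT* values were 221, 195, 202, 153 and 180.0 normalized counts, against 254, 206 and 284 in *Nipbl*+/-. The groups overlapped, since replicate 2 of *Nipbl*+/- was within the *WT* range. *Rspo3* rose by 29.5% (log2 fold change 0.37, SE 0.115, edgeR adjusted P = 0.0554). That call was lost without *WT* replicate 4 or 5 or *Nipbl*+/- replicate 1 or 3, with log2 fold changes down to 0.28. The other R-spondin gene on the list, *Rspo1*, had a log2 fold change of -0.11 and was not called (edgeR adjusted P = 0.82).

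*Wnt5a* encodes a ligand known mainly for signaling that does not use beta-catenin. It had 801, 796, 819.7, 849 and 806 normalized counts in *WT* and 688, 706 and 771 in *Nipbl*+/-, with no overlap. It fell by 11.8% (log2 fold change -0.18, SE 0.0510, edgeR adjusted P = 0.0351), and the call was lost without *Nipbl*+/- replicate 1. *Wnt5a* lies on chromosome 14, from 28504543 to 28527448, 6.14 Mb from *Wapl*.

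*Wnt7a*, a ligand gene of neural progenitors whose product also acts on brain endothelium, had tight *WT* values of 716, 738, 745, 719.8 and 731 normalized counts. The *Nipbl*+/- values were 905, 823 and 757, all higher. *Wnt7a* rose by 13.1% (log2 fold change 0.18, SE 0.0545, edgeR adjusted P = 0.0544), and the call was lost without *WT* replicate 4 or *Nipbl*+/- replicate 1. *Wnt7b*, its close relative, was at 2261, 1844 and 2112 in *Nipbl*+/- and from 2136 to 2279 in *WT*, and was not called (log2 fold change -0.09, edgeR adjusted P = 0.344). The remaining ligand and secretion genes were not called. Their log2 fold changes ran from -0.47 for *Wnt2*, which had only 6.93 normalized counts in *WT*, to 0.33 for *Wnt6* and *Wnt8b*. *Wls*, which carries WNT proteins to the cell surface, had a log2 fold change of 0.00.

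**Figure D2:**
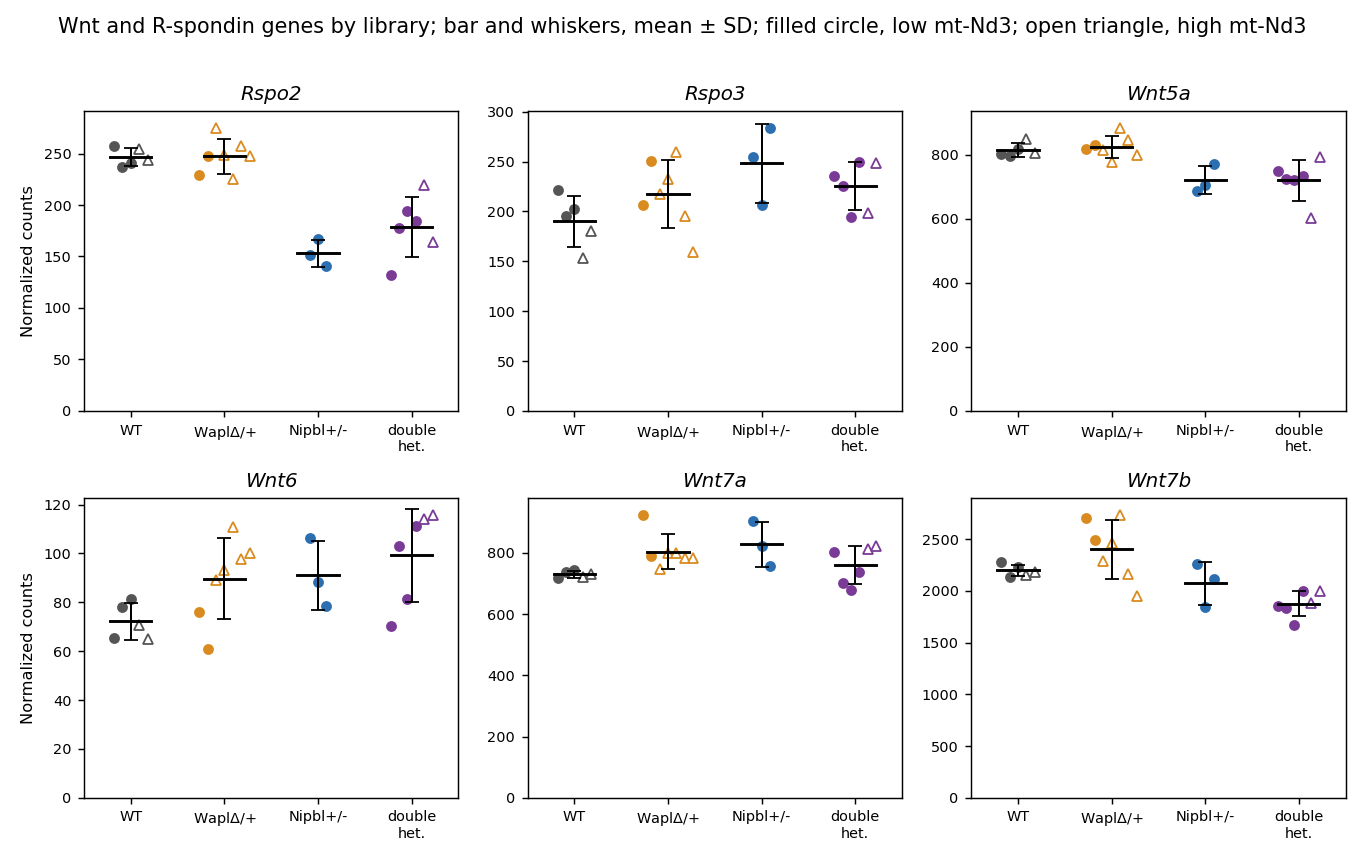
Normalized counts (vertical axes, from 0) of 6 ligand genes in the 21 libraries, by genotype, with the mean and SD of each group as bars and whiskers, and symbols by *mt-Nd3* level. *Rspo2* was below the *WT* range in all 3 *Nipbl*+/- and all 6 double-heterozygote libraries, and *Wnt7b* was below it in all 6 double-heterozygote libraries.

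Of the receptor genes, *Fzd2* and *Fzd4* were called in opposite directions. FZD2 is a frizzled receptor, and its gene had 558, 600.3, 564, 511 and 589.8 normalized counts in *WT* and 779, 602 and 756 in *Nipbl*+/-. The lowest mutant library exceeded the highest *WT* library only narrowly. *Fzd2* was 25.5% higher in *Nipbl*+/- brains (log2 fold change 0.33, SE 0.0741, edgeR adjusted P = 0.00989). FZD4 is a frizzled receptor of vessels that also binds norrin. *Fzd4* had 342, 372, 319, 333 and 339.9 normalized counts in *WT* and 238, 284 and 282 in *Nipbl*+/-, with no overlap. It fell by 21.9% (log2 fold change -0.36, SE 0.0806, edgeR adjusted P = 0.0101). Both calls were kept without any 1 library, but that of *Fzd2* was lost with all 4 groups in one fit (edgeR adjusted P = 0.109). *Fzd4*, with 6646 counts in all libraries together, overlaps *Tmem135*, with 19667. The strand setting of the counting is not given, so reads of these genes could not be told apart by strand.

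The other 15 receptor genes were not called. They included the coreceptor genes *Lrp5* and *Lrp6*, with log2 fold changes of 0.07 and -0.04. *Ror1*, *Lgr4* and *Lgr5* had unadjusted edgeR P values of 0.012, 0.022 and 0.016 and log2 fold changes of -0.35, -0.13 and -0.34. An unadjusted edgeR P below 0.05 was found for 6 of all 17 receptor genes and for 6117 of 30552 tested genes. LGR4 and LGR5 are receptors for R-spondins, and ROR1 is a WNT receptor of the branch without beta-catenin. The remaining receptor genes lay between -0.05 for *Fzd6* and 0.21 for *Fzd5*. *Fzd5* had 147 to 156 normalized counts in *Nipbl*+/-, all above the *WT* range of 118 to 141.

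Among the secreted antagonists, *Dkk3* was the only gene called in *Nipbl*+/-. It encodes a divergent member of the Dickkopf family. Its values were 1264, 1157, 1171, 1379 and 1204 normalized counts in *WT* and 979, 1161 and 892 in *Nipbl*+/-, where replicate 2 was inside the *WT* range. *Dkk3* fell by 18.4% (log2 fold change -0.29, SE 0.0720, edgeR adjusted P = 0.0166), and the call was lost without *Nipbl*+/- replicate 3. *Dkk1*, a classical inhibitor of LRP5 and LRP6, had a log2 fold change of 0.69 at a *WT* level of 9.47 normalized counts and was not called (edgeR adjusted P = 0.24). The log2 fold changes of *Sfrp1*, *Sfrp2* and *Wif1*, whose products bind WNT proteins outside the cell, were 0.02, 0.14 and 0.02. Those of *Frzb*, *Dkk2*, *Sfrp4* and *Sfrp5* were -0.24, -0.26, 0.11 and 0.04, and none of these genes was called.

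All 3 dishevelled genes were higher in *Nipbl*+/- brains. Dishevelled proteins relay the signal from FZD receptors in every branch of the pathway. For *Dvl3*, the *WT* libraries had 4739.9, 4367, 4779, 4532 and 4806 normalized counts and the *Nipbl*+/- libraries 5188, 5009 and 5388, with no overlap. *Dvl3* rose by 11.4% (log2 fold change 0.16, SE 0.0395, edgeR adjusted P = 0.0201). Its call was kept without any 1 library and lost with all 4 groups in one fit (edgeR adjusted P = 0.202). *Dvl1* went from 4681 ± 114 (SD, n = 5) to 5113 ± 127 (n = 3) normalized counts, and *Dvl2* from 1902 ± 49.7 to 2086 ± 52.9, also without overlap. Their log2 fold changes were 0.12 (SE 0.0359, edgeR adjusted P = 0.0452) and 0.13 (SE 0.0384, edgeR adjusted P = 0.0504). The call of *Dvl1* was lost without *WT* replicate 2 or *Nipbl*+/- replicate 1, and that of *Dvl2* without *WT* replicate 2 or 4 or *Nipbl*+/- replicate 1 or 3. *Dvl1* and *Dvl3* overlap other annotated genes, *Tas1r3* and *Gm16618*, which had 1646 and 618 counts in all libraries together.

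*Tcf7l2*, a nuclear partner of beta-catenin, had 5127, 4792, 5074, 4879.8 and 5217 normalized counts in *WT* and 6556, 5379.8 and 5354 in *Nipbl*+/-. All 3 mutant values were higher than every *WT* value, with replicate 1 far above the others. *Tcf7l2* rose by 14.4% (log2 fold change 0.19, SE 0.0537, edgeR adjusted P = 0.0324). Without *Nipbl*+/- replicate 1 the call was lost and the log2 fold change was 0.09. *Apc*, which encodes a scaffold of the destruction complex, had 13955, 12897, 12056, 12784 and 12944 normalized counts in *WT* and 11064, 12430.4 and 11776 in *Nipbl*+/-, with overlap. It fell by 9.41% (log2 fold change -0.14, SE 0.0458, edgeR adjusted P = 0.0663). The call of *Apc* was lost without *WT* replicate 1, 2, 4 or 5 or *Nipbl*+/- replicate 1 or 3. *Ctnnb1*, the gene of beta-catenin, and *Axin1* had log2 fold changes of 0.01 and 0.05 and were not called, and neither were *Tcf7* (0.12) and *Tcf7l1* (0.08).

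The 5 targets are genes that canonical signaling is known to induce, mostly in a feedback loop. *Axin2* encodes a destruction-complex scaffold and is a widely used readout of canonical signaling. It had 1582, 1529, 1596, 1613 and 1545 normalized counts in *WT* and 1819, 1722 and 1809.8 in *Nipbl*+/-, with no overlap. *Axin2* rose by 12.9% (log2 fold change 0.17, SE 0.0393, edgeR adjusted P = 0.00942) and kept its call without any 1 library.

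*Lef1*, a nuclear factor gene, had 639, 550.0, 622, 534 and 609.8 normalized counts in *WT* and 722, 631 and 735 in *Nipbl*+/-. The groups overlapped through replicate 2 of *Nipbl*+/-. *Lef1* rose by 17.1% (log2 fold change 0.23, SE 0.0663, edgeR adjusted P = 0.0414), and the call was lost without *WT* replicate 2 or *Nipbl*+/- replicate 1 or 3. *Nkd2* encodes a protein that binds dishevelled and dampens the pathway. It had 1003, 969, 940.5, 1022 and 972 normalized counts in *WT* and 864, 893 and 778 in *Nipbl*+/-, all lower. *Nkd2* fell by 14.2% (log2 fold change -0.22, SE 0.0515, edgeR adjusted P = 0.0122), and the call was lost without *Nipbl*+/- replicate 3. *Nkd1*, its relative, had a log2 fold change of 0.15 (edgeR adjusted P = 0.14), and *Notum*, whose product removes the lipid of WNT proteins, had -0.12 (edgeR adjusted P = 0.64).

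**Figure D3:**
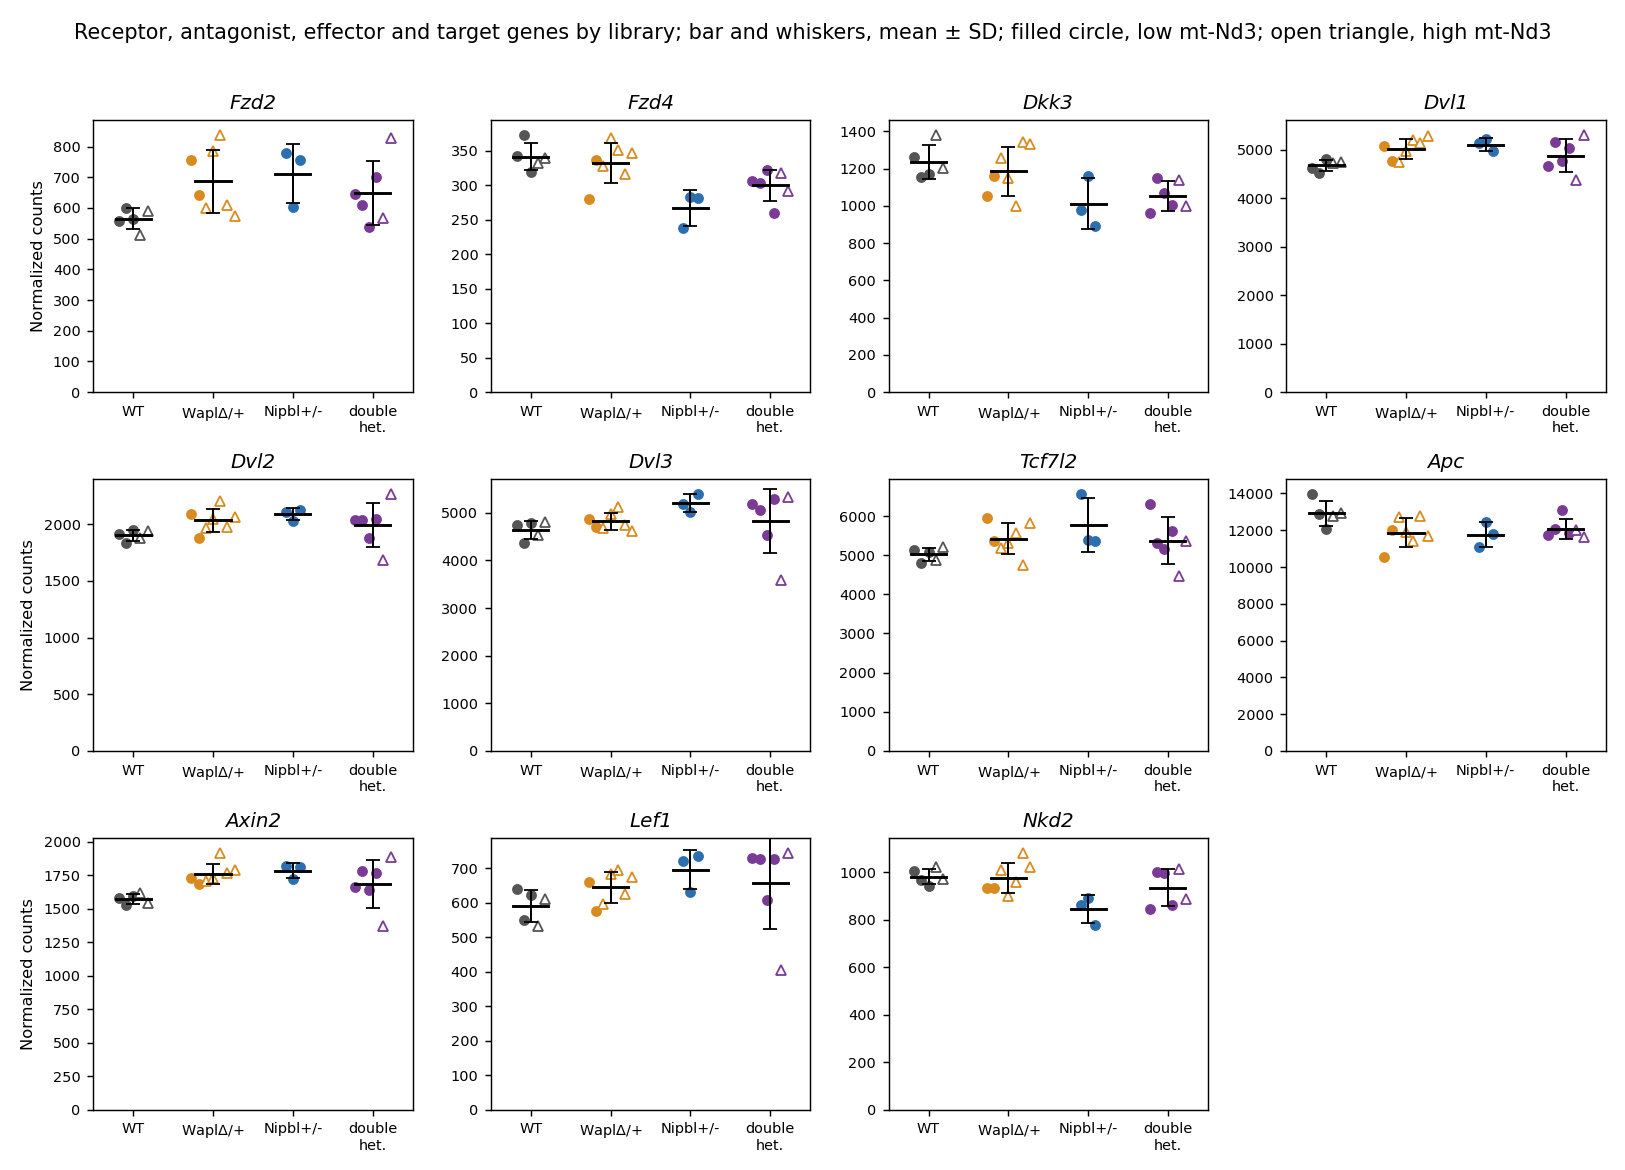
Normalized counts (vertical axes, from 0) of 11 receptor, antagonist, effector and target genes in the 21 libraries, by genotype, with the mean and SD of each group as bars and whiskers, and symbols by *mt-Nd3* level. Double-heterozygote replicate 5 was the lowest library for *Dvl1*, *Dvl2*, *Dvl3*, *Tcf7l2*, *Axin2* and *Lef1*, with 405 normalized counts for *Lef1*.

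Since all *Nipbl*+/- libraries had low *mt-Nd3*, they were also compared with the 3 *WT* libraries of the low set alone. Then 6 of the 15 genes were called, *Axin2*, *Dvl3*, *Fzd2*, *Fzd4*, *Nkd2* and *Rspo2*, where 6.16% of all tested genes were called, and all 15 kept their direction. The log2 fold change of *Rspo2* was -0.68 and that of *Axin2* 0.18. The 9 higher genes span a median of 32.96 kb of genome and the 6 lower genes 36.3 kb, beside 34.2 kb over all 58.

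Some markers of regions and cell types were also called in *Nipbl*+/-. For reference, 11.2% of all tested genes and 20.5% of those with a mean of 100 or more were called. In a list for the hippocampus and cortical hem, which includes *Rspo2*, 3 genes were higher (*Lhx2*, *Lhx5*, *Lmx1a*) and 3 lower (*Prox1*, *Reln*, *Rspo2*) of 8. The sum of its other 7 genes was 15374 to 18110 normalized counts in *WT* and 14316 to 15453 in *Nipbl*+/-, with overlap. Of 12 markers of radial glia and progenitors, *Eomes*, *Nes* and *Sox2* were higher and *Fabp7*, *Hopx* and *Slc1a3* lower, and the sum was 42038 to 43713 in *WT* and 38252 to 43782 in *Nipbl*+/-. Of 12 neuronal markers, *Snap25* and *Syt1* were lower, and the sum was 209050.5 to 220488 in *WT* and 198669 to 209481 in *Nipbl*+/-. Of 10 endothelial markers, *Cdh5* and *Slc2a1* were higher and *Slco1c1* lower, with sums of 12322 to 12978 and 11858 to 13441. In the lists for choroid plexus, meninges, red blood cells, and cartilage and bone, 2 of 10, 3 of 11, 0 of 7 and 2 of 8 genes were called. The share called was 16.7% to 30% for neurons, choroid plexus, meninges, endothelium, and cartilage and bone, near the 20.5%. It was 50% for radial glia and progenitors and 75% for the hippocampus and cortical hem, in short lists. No marker of the lists given here was at 0 in all *Nipbl*+/- libraries. The part of these differences in the Wnt results was not tested.

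Wnt pathway genes outside the 59 names were examined as a second list of 67, of which 66 were tested. This list was chosen with earlier results of these data known, so its share called is a description and no independent test. In *Nipbl*+/- brains, 13 were higher and 11 lower, which is 36.4% called, where 11.2% of all tested genes and 20.5% of those with a mean of 100 or more were called. The calls were 0 of 8 ligand genes, 2 of 10 receptor genes, 2 of 8 antagonist genes, 10 of 22 effector genes, 7 of 9 planar cell polarity genes and 3 of 9 target genes. The smallest adjusted P values belonged to *Prickle2*, *Draxin* and *Tle2*. *Prickle2*, a core planar cell polarity gene, fell from 2233 ± 168 (n = 5) to 1583 ± 177 (n = 3) normalized counts (log2 fold change -0.50, SE 0.0667, edgeR adjusted P = 0.000189). *Draxin*, whose product binds LRP6 and guides axons, rose from 5048 ± 56.9 to 5993 ± 382 (log2 fold change 0.24, SE 0.0390, edgeR adjusted P = 0.000914). *Tle2*, a Groucho corepressor gene, rose from 1872 ± 78.8 to 2227 ± 28.5 (log2 fold change 0.24, SE 0.0413, edgeR adjusted P = 0.00128). For all 3, no *Nipbl*+/- library overlapped the *WT* range.

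In *Wapl*Δ/+ brains, 1 of 58 Wnt genes was called, *Axin2*, higher, where 2.22% of all tested genes were called and 0.769% were called higher. The groups did not overlap for 2 of 58, *Axin2* and *Wnt7a*, and for 1.2% of all tested genes. *Axin2* had 1684, 1729 and 1915 normalized counts as the lowest, median and highest of 7 *Wapl*Δ/+ libraries. All 7 were above the highest *WT* value of 1613. *Axin2* rose (log2 fold change 0.16, SE 0.0360, edgeR adjusted P = 0.0439). The call was lost without *WT* replicate 1, 2 or 5, with log2 fold changes from 0.14 to 0.17.

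The median log2 fold change in *Wapl*Δ/+ was 0.10 over the 58 Wnt genes and -0.0034 over all genes. At an unadjusted P below 0.05, edgeR gave 18 of 58, where 15.6% of all tested genes had such a P. *Wnt7a* was at 746, 789 and 925 normalized counts (lowest, median, highest), and all 7 libraries were above the *WT* range, but it was not called (log2 fold change 0.14, edgeR adjusted P = 0.154). *Fzd2* had a log2 fold change of 0.28 and 5 of 7 libraries above the *WT* range (edgeR adjusted P = 0.106). *Fzd8* and *Tcf7* had log2 fold changes of 0.22 and 0.21 (edgeR adjusted P = 0.11 and 0.10). The test of DESeq2 called 11 Wnt genes, 10 higher and 1 lower, where it called 4.73% of all tested genes (those to which it gave no adjusted P are counted as not called): *Axin2*, *Dvl1*, *Fzd1*, *Fzd2*, *Fzd8*, *Lrp5*, *Ror2*, *Sfrp1*, *Tcf7* and *Wnt7a* were higher and *Apc* lower. Without *Wapl*Δ/+ replicate 2, edgeR called 9, all higher, and without replicate 3, 6 or 7 it called 4, 4 and 5. In these 4 fits, 5.02%, 2.81%, 2.99% and 2.51% of all tested genes were called.

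*Rspo2* showed no such difference in *Wapl*Δ/+, with 225, 248 and 275 normalized counts as lowest, median and highest against 237 to 257 in *WT* (log2 fold change 0.01, 95% interval -0.12 to 0.13). *Wnt7b* ranged widely, from 1954 to 2739 with a median of 2459, and had 5 of 7 libraries above the *WT* range and 1 below it. Within the libraries with low *mt-Nd3* and within those with high *mt-Nd3*, edgeR called no Wnt gene in *Wapl*Δ/+. In these fits, 0.154% and 0.91% of all tested genes were called. Of the second list, 5 genes were higher and 2 lower of 66, which is 10.6% called. The share was 2.22% over all tested genes and 3.82% over those with a mean of 100 or more. Among the markers, 3 of 11 for the meninges were higher (*Col1a1*, *Col1a2* and *Col3a1*), and the sum of that list was 25534 to 39243 normalized counts against 24106 to 30078 in *WT*. *Cdh5* of the endothelium was higher and *Reln* lower, and their part in the Wnt results was not tested.

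In double heterozygotes, 4 of 58 Wnt genes were called against *WT*, where 3.28% of all tested genes were called. *Rspo2*, *Wnt7b* and *Dkk3* were lower and *Wnt6* higher, where 2.46% of all tested genes were called lower and 0.812% higher. The groups did not overlap for 4 of 58, the 3 lower genes and *Wnt5a*, and for 2.76% of all tested genes. Where the mean reached 100 normalized counts, 3 of 45 Wnt genes (6.67%) and 6.02% of all genes were called, shares that lie close together. The median log2 fold change was 0.05 over the 58 genes and 0.00 over all genes.

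*Rspo2* had 132, 181 and 219.5 normalized counts as the lowest, median and highest of 6 double-heterozygote libraries. All were below the lowest *WT* value of 237. It fell by 26.9% (log2 fold change -0.45, SE 0.0966, edgeR adjusted P = 0.0184), with log2 fold changes from -0.53 to -0.38 when any 1 library was left out and the call kept each time. Against *Wapl*Δ/+, it fell by 27.4% (log2 fold change -0.46, SE 0.0903, edgeR adjusted P = 0.0172), again without overlap. Against *Nipbl*+/-, it was 17.1% higher, with a 95% interval of the log2 fold change from -0.06 to 0.52, and was not called (edgeR adjusted P = 0.971).

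*Wnt7b*, a ligand gene of cortical neurons and progenitors that lies on chromosome 15 from 85535437 to 85581821, had 1676, 1871 and 2003 normalized counts (lowest, median, highest). All 6 libraries were below the lowest *WT* value of 2136. It fell by 14.1% (log2 fold change -0.22, SE 0.0432, edgeR adjusted P = 0.0111). The call was kept without any 1 library and lost with all 4 groups in one fit (edgeR adjusted P = 0.144). Against *Wapl*Δ/+, it fell by 21.5% (log2 fold change -0.35, SE 0.0662, edgeR adjusted P = 0.0140), where 4 of 6 libraries were below every *Wapl*Δ/+ library. In *Wapl*Δ/+ and in *Nipbl*+/-, *Wnt7b* was not called. The lncRNA gene *AU022754* overlaps *Wnt7b*, with 3043 counts in all libraries together against 45199 for *Wnt7b*, and their reads could not be told apart by strand.

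*Dkk3* had 959, 1036 and 1153 normalized counts, all below the lowest *WT* value of 1157. It fell by 14.0% (log2 fold change -0.22, SE 0.0565, edgeR adjusted P = 0.0539), and the call was lost without *WT* replicate 1 or 4 or double-heterozygote replicate 1 or 4. *Wnt6* had 70.3, 107 and 116 normalized counts, and 4 of 6 libraries were above the highest *WT* value of 81.5. It rose by 38.4% (log2 fold change 0.47, SE 0.133, edgeR adjusted P = 0.0826). Its call was lost without *WT* replicate 1, 2, 4 or 5 or double-heterozygote replicate 2, 4 or 6. *Wnt5a* had 602, 729 and 793 normalized counts, all below the *WT* range, but was not called (log2 fold change -0.17, edgeR adjusted P = 0.131).

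One library weighed on the comparison. Double-heterozygote replicate 5 had the lowest value of all 21 libraries for 17 of 58 Wnt genes and the highest for none, while no other library was lowest for more than 7. That count was not made over all tested genes, so it is not shown to be particular to the Wnt genes. These 17 included *Fzd1*, *Fzd5*, *Fzd6*, *Fzd7*, all 3 dishevelled genes and 4 genes of TCF and LEF factors. *Lef1* was at 405 normalized counts in that library and from 607 to 744 in the other 5 double heterozygotes. *Dvl3* was at 3595 there and from 4541 to 5327 in the others. The same library had the highest summed level of the neuronal markers, 226404 normalized counts, and the lowest of the meningeal and the cartilage and bone markers, 22956 and 1013. Without it, 8.2% of all tested genes and 12 of 58 Wnt genes were called against *WT*, 8 higher and 4 lower: *Axin2*, *Dvl3*, *Fzd2*, *Lef1*, *Lrp5*, *Rspo3*, *Tcf7l2* and *Wnt6* were higher and *Dkk3*, *Rspo2*, *Wnt5a* and *Wnt7b* lower. Without *WT* replicate 1 or 4 or double-heterozygote replicate 4, 2 were called, where 1.58%, 1.49% and 1.73% of all tested genes were called.

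The 15 genes called in *Nipbl*+/- were placed against the range of the 5 *WT* libraries, library by library, as a description of genes chosen in a comparison with those same *WT* libraries. In double-heterozygote replicates 1, 2, 4 and 6, 14, 13, 14 and 15 of the 15 lay outside the *WT* range on the *Nipbl*+/- side. In replicate 3, 4 did so and 10 were inside the *WT* range. In replicate 5, 6 did so, and 6 lay outside the range on the other side. Among *Wapl*Δ/+ libraries, replicates 1, 4 and 5 had 13, 13 and 12 genes on the *Nipbl*+/- side, and the other 4 had 3 to 7. *Nipbl*+/- replicate 2 had 11, while replicates 1 and 3 had all 15. The group mean of the double heterozygotes lay between those of *WT* and *Nipbl*+/- for 14 of the 15 genes, and for *Wnt5a* it was just past the *Nipbl*+/- mean. The 15 genes were chosen by the difference between *Nipbl*+/- and *WT*, and that choice favors a mean in between. The count is thus a description and no test of rescue.

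**Figure D4:**
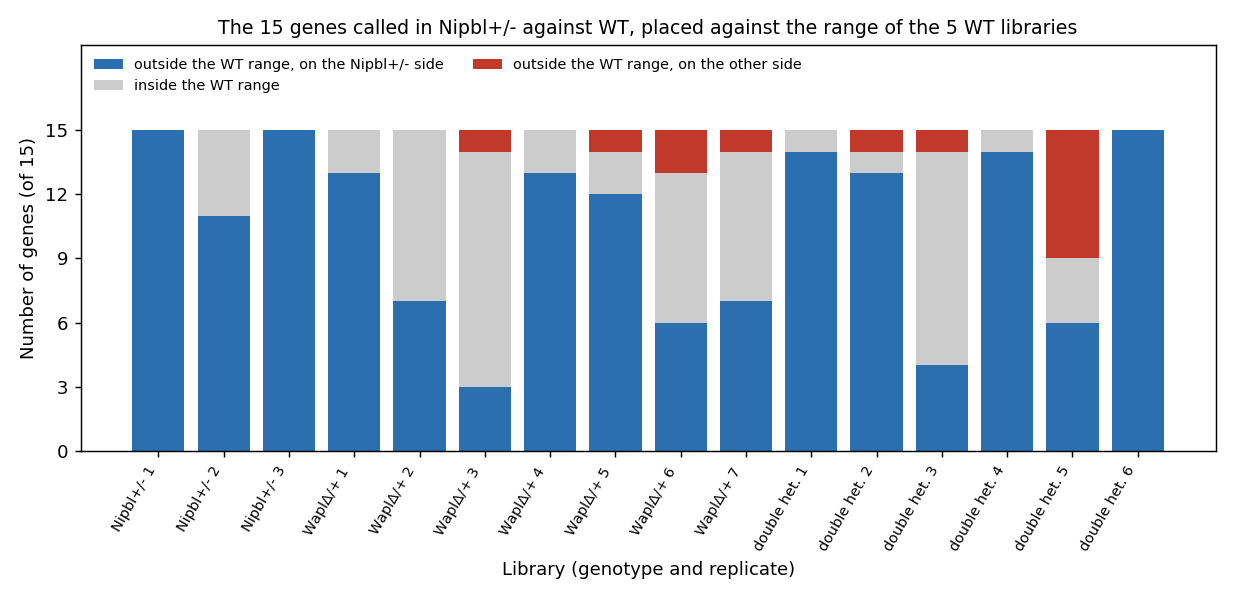
Number of the 15 genes called in *Nipbl*+/- against *WT* (vertical axis) that lay, in each mutant library (horizontal axis), outside the range of the 5 *WT* libraries on the *Nipbl*+/- side (blue), inside it (gray) or outside it on the other side (red). The double-heterozygote libraries of replicates 1, 2, 4 and 6 had 13 to 15 genes in blue, and replicates 3 and 5 had 4 and 6.

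Compared directly with *Nipbl*+/-, the double heterozygotes had 0 of 58 Wnt genes called by edgeR, where 0.00655% of all tested genes were called. DESeq2 called 0, and 1 gene, *Wnt11*, had an unadjusted edgeR P below 0.05 (log2 fold change 0.46), as did 4.12% of all tested genes. The log2 fold changes ran from -0.32 for *Wnt8b* to 0.55 for *Wnt2*, with a median of 0.00. For *Axin2*, the 95% interval of the log2 fold change was -0.23 to 0.07, for *Fzd4* -0.02 to 0.36 and for *Nkd2* -0.01 to 0.31, so differences of the size seen between *Nipbl*+/- and *WT* were within some of these intervals.

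Compared with *Wapl*Δ/+, 2 of 58 genes were called in double heterozygotes, *Rspo2* and *Wnt7b*, both lower, where 1.02% of all tested genes were called and 0.812% were called lower. The groups did not overlap for 1 of 58, *Rspo2*, and for 0.894% of all tested genes. The median log2 fold change was -0.06 over the Wnt genes and 0.01 over all genes. *Wnt5a* had 5 of 6 libraries below every *Wapl*Δ/+ library and was not called (log2 fold change -0.19, edgeR adjusted P = 0.148). *Dkk2* and *Fzd8* had log2 fold changes of -0.33 and -0.22 and were not called (edgeR adjusted P = 0.20 and 0.29).

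The interaction asked whether the effect of both deletions differed from the sum of the single effects on the log2 scale. It was called by edgeR for 0 of 58 Wnt genes, where 0% of all tested genes were called. At an unadjusted edgeR P below 0.05 there were 14 of 58, where 13.8% of all tested genes had such a P. DESeq2 called 2, *Axin2* and *Wnt7a*, both lower than the sum, where it called 2.6% of all tested genes. In edgeR, the interaction was -0.27 for *Axin2* (SE 0.0794, unadjusted P = 0.00216, adjusted P = 0.200) and -0.29 for *Wnt7a* (SE 0.0910, unadjusted P = 0.00390, adjusted P = 0.201). *Fzd2*, *Dvl1* and *Wnt7b* had values of -0.44, -0.19 and -0.30, with edgeR adjusted P values of 0.208, 0.204 and 0.211. Without double-heterozygote replicate 6, edgeR called 5 genes, *Axin2*, *Dvl1*, *Fzd1*, *Fzd2* and *Wnt7a*, all lower than the sum, where 3.09% of all tested genes were called. The median interaction was -0.10 over the Wnt genes and -0.02 over all genes.

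**Figure D5:**
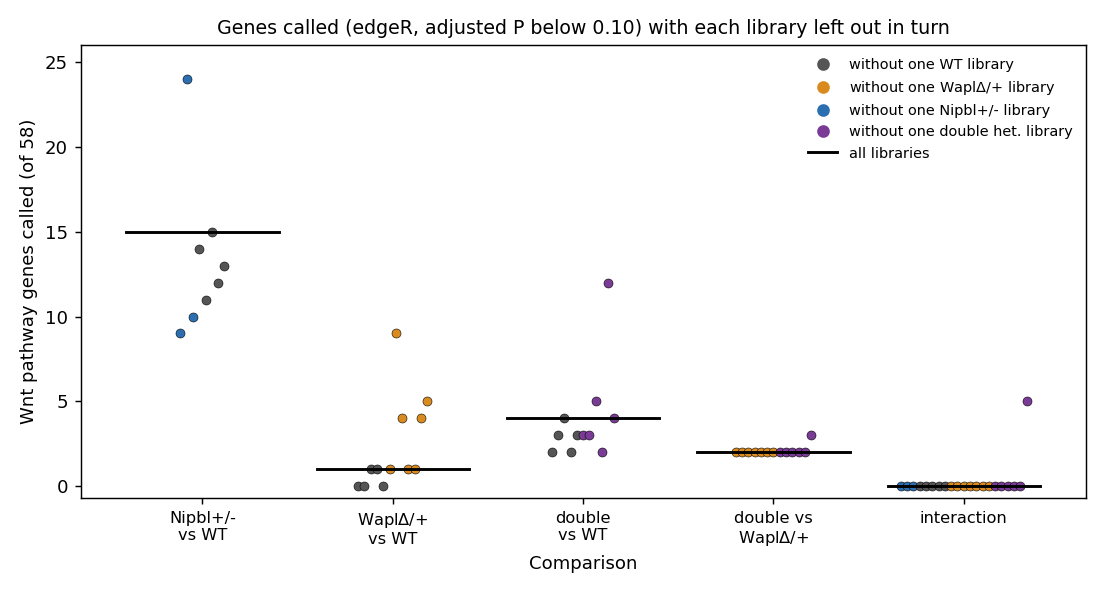
Number of the 58 Wnt genes called by edgeR (vertical axis) in 5 comparisons (horizontal axis) with all libraries (black line) and with each library left out in turn (points, colored by the genotype left out). In *Nipbl*+/- against *WT* the count ran from 9 to 24, and in double heterozygotes against *WT* it was 2 to 5 except for 12 without replicate 5.

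Of the second list of 66 Wnt pathway genes, 0 were higher and 5 lower in double heterozygotes against *WT*, which is 7.58% called. The share was 3.28% over all tested genes and 6.02% over those with a mean of 100 or more, near that of the list. Over all tested genes, 2.46% were called lower and 0.812% higher. The 5 lower genes were *Prickle1*, *Prickle2*, *Ccnd1*, *Myc* and *Sp8*, and all except *Prickle2* were named after their values were seen. *Prickle2* was at 1790.5 ± 250.0 normalized counts in double heterozygotes and 1762 ± 256 in *Wapl*Δ/+, against 2233 ± 168 in *WT* (log2 fold changes -0.31 and -0.34, edgeR adjusted P = 0.0488 and 0.0463). *Ccnd1*, a cyclin gene, and *Myc*, a transcription factor gene, had all 6 libraries below the *WT* range, with log2 fold changes of -0.15 and -0.27 (edgeR adjusted P = 0.0415 and 0.0207). *Prickle1* and *Sp8* had log2 fold changes of -0.24 and -0.23 (edgeR adjusted P = 0.0108 and 0.0811). Among the markers, *Syt1*, *Hopx* and *Slc1a3* were lower and *Otx2*, *Crabp2* and *Lhx5* higher in double heterozygotes, and their part in the Wnt results was not tested. Double-heterozygote replicates 1 and 2 had meningeal sums of 36566 and 39015 normalized counts, above the *WT* maximum of 30078. Replicate 1 also had a cartilage and bone sum of 7316, where the *WT* maximum was 1800.5.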

How the data were processed

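Per the processing notes in the labels, the authors used cutadapt 2.4 for trimming, STAR 2.5.3a for alignment to mm10 (GRCm38.p6) and featureCounts of Subread 1.6.4 for counting. The deposited table holds raw counts per gene. The strand setting and the handling of reads on several genes are not given in the sources used here. Groups came from the labels.

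Here, counts were analyzed in R 4.3.3 with edgeR 4.0.16 (TMM, quasi-likelihood test, Benjamini-Hochberg adjustment) and, as an alternative, DESeq2 1.42.0. A gene was tested when its normalized counts added up to 10 or more. Fits of 2 groups held the libraries of those groups, and the fit of the interaction held all 4. The fits of 2 groups, but not that of the interaction, were tested on simulated data. The changes placed in those data were larger than most of the changes reported here. Gene positions came from RefSeq for GRCm38.p6. Sequences and transcript lengths were not used.

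The Wnt genes, the second list and the marker lists were chosen with earlier results of these data known, and 1 marker list is not reported here in full. Named with values were the Wnt genes called in any comparison, the 3 genes of the second list with the smallest adjusted P in *Nipbl*+/-, *Wapl*, *Nipbl* and *mt-Nd3*. Uncalled genes that are named were chosen after their values were seen. Alternatives were other normalization, filters and thresholds, one fit of all groups, a replicate block, a term for *mt-Nd3*, subsets by *mt-Nd3* or by whether the label writes the *Wapl* deletion first, and leaving out each library.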

Additional observations from a re-analysis of the deposited data

Results flagged for a closer look

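Over 57 combinations of a named gene and a group, 3 had a library that stood apart from the rest of its group by Dixon's criterion, and chance gives about 1 in 20 groups. The *Nipbl*+/- group, with 3 libraries, was too small for this criterion and was not examined. *Wnt5a* in double-heterozygote replicate 5 was at 602 normalized counts, below the next lowest library at 722. *Wnt7a* in *Wapl*Δ/+ replicate 1 was at 925, above the next highest at 801. *Apc* in double-heterozygote replicate 3 was at 13109, above the next highest at 12043.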

How the results depend on the processing

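No Wnt gene called in a comparison changed direction under any alternative. The count of Wnt genes called was less stable. The share of all tested genes called in the same fit, given in brackets, also shifted. In *Nipbl*+/- against *WT* (15, 11.2%), the count was 4 (5.43%) with all 4 groups in one fit. It was 5 (6.2%) with the replicate number as a block, 9 (7.94%) with a term for *mt-Nd3* and 6 (6.16%) in the libraries with low *mt-Nd3* alone. Leaving out 1 library gave 9 (5.98%, without *Nipbl*+/- replicate 1) to 24 (15.7%, without *Nipbl*+/- replicate 2). In *Wapl*Δ/+ against *WT* (1, 2.22%), it was 11 (4.73%) with DESeq2, 2 (3.37%) with filterByExpr and 4 (2.34%) with no filter beyond 1 count. It was 0 (0.0229%) with all groups in one fit and 9 (6.52%) with the replicate block. It was 0 (0.154%) in the low and 0 (0.91%) in the high *mt-Nd3* libraries. With the *Wapl* deletion written first and second, it was 7 (3.24%) and 6 (4.26%). Leaving out 1 library gave 0 (0.0426%, 0.0295% and 0.324% without *WT* replicate 1, 2 and 5) to 9 (5.02%, without *Wapl*Δ/+ replicate 2). In double heterozygotes against *WT* (4, 3.28%), it was 2 (1.79%) at an adjusted P below 0.05. It was 1 (1.97%) with all groups in one fit and 2 (1.75%) with the replicate block. It was 2 (2.2%) in the low and 0 (0.00327%) in the high *mt-Nd3* libraries. With the deletion written first and second, it was 7 (5.94%) and 1 (2.84%). Leaving out 1 library gave 2 to 12 (1.49% to 8.2%). Against *Wapl*Δ/+ (2, 1.02%), it was 1 (0.0786%) in the low and 0 (0.0949%) in the high *mt-Nd3* libraries. It was 1 (0.0786%) and 0 (0.0949%) with the deletion written first and second, and 2 to 3 without 1 library (0.534% to 1.47%). Against *Nipbl*+/- it was 0 in every fit (0.00327% to 0.193%). For the interaction (0, 0%), it was 2 (2.6%) with DESeq2, 1 (0.206%) with the deletion written first, and 0 to 5 without 1 library (0% to 3.09%). Subsets hold fewer libraries, and the cause of the other shifts was not tested.

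*Rspo2* and *Fzd4* in *Nipbl*+/- against *WT* kept their calls under all alternatives. In that comparison, *Axin2* and *Dvl3* lost their calls with the replicate block (edgeR adjusted P = 0.108 and 0.115). In double heterozygotes against *WT*, *Rspo2* and *Wnt7b* lost theirs in the high *mt-Nd3* libraries and with the deletion written second. Against *Wapl*Δ/+, both lost theirs in these same subsets. *Rspo2* also lost its call there in the low *mt-Nd3* libraries and with the deletion written first. Each call of a named gene was followed through each alternative fit of its comparison. It held in 315 of these combinations of gene and fit and was lost in 106. As a rule, the replicate numbers did not pair the libraries: 8 of 25 same-numbered pairs had a correlation of deviations above 0.1, and 3 of 21 libraries correlated best with their own number. The correlation ran from -0.27 to 0.44 in same-numbered pairs, and its median was 0.0045 in pairs with other numbers. The mutant libraries numbered 1 had values of 0.34 to 0.44 with each other and -0.17 to 0.08 with *WT* replicate 1. No subset of high *mt-Nd3* exists for *Nipbl*+/-, which has no such library. Of the 58 genes, 13 had a mean below 100 normalized counts, where the coefficient of variation among *WT* libraries had a median of 13.1%, so that small changes of these genes were not detectable at this depth.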
